A study of Mus musculus with 6 samples.

Results

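Transcript levels of 8 reported target genes of miR-451 and miR-144 were examined in spleen CD8a+ leukocytes, in 3 libraries of wild-type mice (WT) and 3 of mice lacking miR-144/451 (KO). The genes are those listed as published targets: Ywhaz, Cab39, Rab14, Mif and Tsc1 for miR-451, and Nfe2l2, Abca1 and Notch1 for miR-144. All 8 were found by their Ensembl identifiers among the 44678 genes counted, and all 8 passed the filter on low counts, which left 13024 genes for the test.

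WT mice were C57BL/6J, and the KO mice carried, on the same background, a deletion of the genomic segment that holds both precursors. Both groups are labelled as untreated, and the labels give no age or sex for single mice. The study's methods describe magnetic beads against the mouse CD8a antigen for purifying CD8+ cells, but do not name the cells that went into these libraries. Nothing in the labels says whether a library came from 1 mouse or from pooled mice, so p-values measure the spread between these libraries.

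miR-144 and miR-451 are processed from neighbouring hairpins of 1 primary transcript and are best known from red blood cell formation, where GATA1 drives the locus. A miRNA guides Argonaute proteins to transcripts whose 3′-UTR pairs with its seed, the bases near its 5′ end, which lowers the stability or the translation of those transcripts. A target that is held down by the miRNA in a given cell would be expected to be higher when the miRNA is missing, if the cell makes the miRNA and if the control acts on the level of mRNA.

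The mature miRNAs that the KO mice lack are shown because the members can be sorted by matches to their seeds, positions 2 to 8, here in capitals. The sequences are those of RefSeq for GRCm38.p6. All 3 lie on the plus strand of chromosome 11, at chr11:78073186-78073207 for miR-451a, chr11:78073047-78073066 for miR-144-3p and chr11:78073010-78073032 for miR-144-5p. No pair of them shares a seed.
mmu-miR-451a: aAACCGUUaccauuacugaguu
mmu-miR-144-3p: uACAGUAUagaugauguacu
mmu-miR-144-5p: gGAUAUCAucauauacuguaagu

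The sites searched on the sense strand of the 3′-UTRs were AACGGTT for miR-451a, ATACTGT for miR-144-3p and TGATATC for miR-144-5p. A match of 7 nt pairs with positions 2 to 8. An 8-nt match has in addition an A opposite position 1, and a 6-nt match pairs only with positions 2 to 7. A 6-nt match with an A opposite position 1 is counted apart from these. Below are, in the 6 members that have one, the strongest match to the miRNA the gene is reported for, and the next strongest in Nfe2l2 and Abca1, as windows of 22 bases of the transcript strand on GRCm38, with the matched bases in capitals.
Ywhaz, miR-451a, chr15:36772146-36772167, minus strand: ctggtaagggcagaAACGGTTc
Cab39, miR-451a, chr1:85849318-85849339, plus strand: tctgctgttaagtgAACGGTTt
Rab14, miR-451a, chr2:35181914-35181935, minus strand: gctttgtctcgctgtACGGTTt
Nfe2l2, miR-144-3p, chr2:75675697-75675718, minus strand: tacagaacttatttATACTGTt
Nfe2l2, miR-144-3p, chr2:75675605-75675626, minus strand: ctatacttttttatATACTGTA
Abca1, miR-144-3p, chr4:53033820-53033841, minus strand: gaagaacaaactggATACTGTA
Abca1, miR-144-3p, chr4:53031145-53031166, minus strand: gtaacgccacagtaATACTGTt
Notch1, miR-144-3p, chr2:26458061-26458082, minus strand: taagatgttgattctTACTGTg

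Among the miR-451 targets, Ywhaz and Cab39 each held a single 7-nt match, 565 nt and 111 nt after the stop codon, in every annotated 3′-UTR of the gene. Rab14 held only a 6-nt match to miR-451a, in 1 of its 3 annotated 3′-UTRs. Ywhaz and Rab14 also held a 6-nt match with an A opposite position 1 for miR-144-3p, the miRNA they are not reported for. No match of 6 nt or more to any of the 3 miRNAs was found in the 124 nt of the Mif 3′-UTR or in the 3994 nt of that of Tsc1. These letters are absent from these windows, which says nothing of pairing elsewhere in the transcripts.

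Nfe2l2 held 2 matches to miR-144-3p of 7 nt or longer within a 3′-UTR of 448 nt, and Abca1 held 2 within 3156 nt, the first of them 116 nt after the stop codon. Both genes had an 8-nt match. The 3′-UTR of Notch1 had only a 6-nt match, 1464 nt after the stop codon. Of the longest 3′-UTRs of 21037 protein-coding genes, 1.75% held the 7-nt match to miR-451a, 11.9% that to miR-144-3p and 6.12% that to miR-144-5p. Among 3′-UTRs within 20% of the length of that of Abca1, which is itself counted, 4.07% held 2 or more such matches to miR-144-3p.

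**Figure D1:**
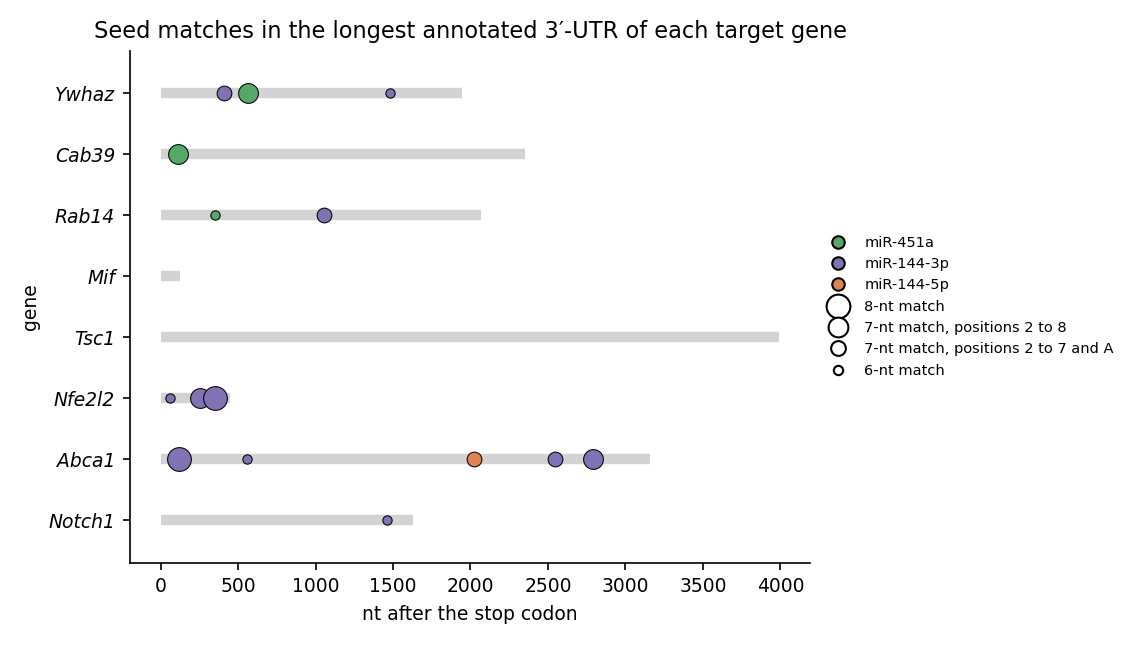
Seed matches along the longest annotated 3′-UTR of each target gene, in nt after the stop codon. Grey bars are the 3′-UTRs, circle colour gives the miRNA and circle size the kind of match; Mif and Tsc1 carry no circle, and the largest circles, the 8-nt matches, lie in Nfe2l2 and Abca1.

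The libraries held between 8143971 and 8876570 counts, and 3 counts in a library correspond to 0.338 to 0.368 CPM, the counts of a gene scaled to a common library size. Levels below are CPM after TMM scaling over the tested genes. The genes of the deleted precursors, Mir144 and Mir451a, had 0 counts in all 6 libraries, WT included, so they do not check the genotype labels. By the quasi-likelihood test of edgeR, 4 of the 13024 genes (0.0307%) differed between KO and WT at a Benjamini-Hochberg adjusted p under 0.05, and leaving out 1 library moved this to between 2 and 94 genes, 94 without KO3. Cd8a and Cd8b1, which encode the CD8 chains, summed to between 1240 and 1797 CPM in WT and between 781 and 1718 CPM in KO. The 10 B cell markers summed to between 1508 and 3505 CPM over the libraries, and the 10 monocyte markers to between 1384 and 2408 CPM, so transcripts of other spleen cells were present in every library. WT1 had marker sums near those of KO1 and KO2 for T cells, B cells, monocytes and neutrophils, and KO3 had sums near those of WT2 and WT3.

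None of the 8 target genes was called between KO and WT by edgeR with adjustment over all 13024 genes. At an unadjusted p under 0.05, 1 of the 8, Abca1, was higher in KO, where 4.14% of all tested genes were higher at that threshold, 2.11% lower and 6.25% in either direction. DESeq2 and limma voom likewise called 0 of the 8 and had 1 at an unadjusted p under 0.05. Of the 8, 2 (Rab14 and Abca1) had a log2 fold change above 0, against 50.6% of all tested genes, and the median over the 8 was -0.048, against 0.0030 over all tested genes. The libraries of the genotypes did not overlap for Abca1, higher in KO, and for Ywhaz, lower in KO, where 5.83% and 5.64% of all genes did the same in those directions. When WT1 and KO3 were both left out, 2 of the 8 were called, Abca1 (log2 fold change 0.62, SE 0.094, adjusted p = 0.00541) and Notch1 (-0.36, SE 0.093, adjusted p = 0.0496), together with 1011 of all genes. Those 2 libraries were picked after their marker sums had been seen to lie near the other genotype, a choice that widens the gap between the groups, so these calls are given for completeness and are not evidence of a difference.

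**Figure D2:**
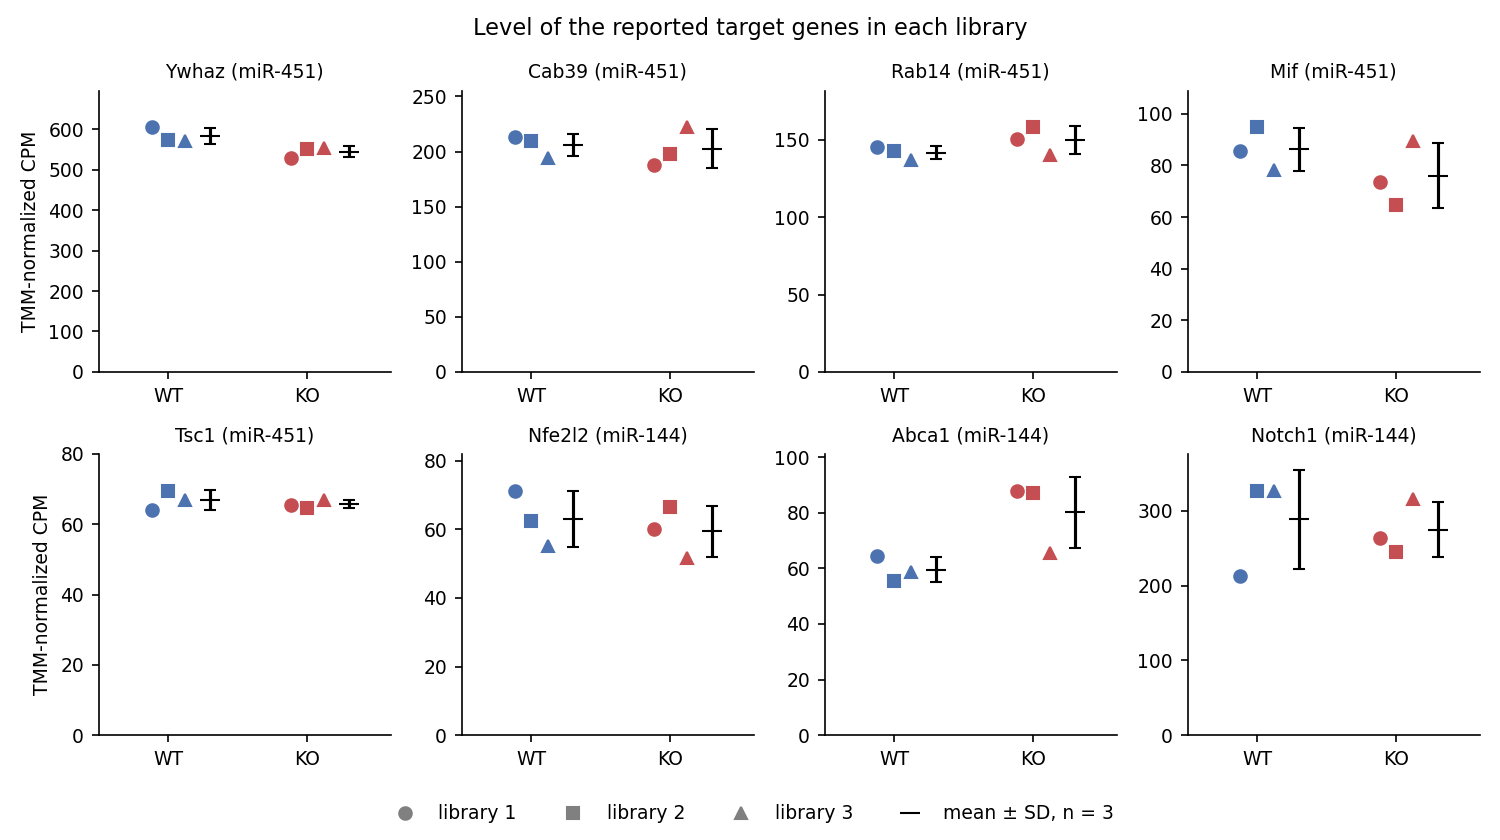
TMM-normalized CPM of the 8 target genes in each library, with WT in blue, KO in red and bars for the mean ± SD of 3 libraries; each panel starts at 0 and has its own scale. Abca1 is above all WT libraries in all 3 KO libraries, KO3 by the least at 65.4 against 64.4 CPM in WT1, and Ywhaz is below all WT libraries in all 3 KO libraries.

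Ywhaz (ENSMUSG00000022285, chr15:36770770-36796929, minus strand) encodes 14-3-3 zeta, an adaptor that binds phosphorylated proteins such as FoxO factors. Its level was 605, 573 and 571 CPM in WT and 528, 552 and 553 CPM in KO. The 3 KO libraries lay below the 3 WT libraries, by a margin smaller than the spread among WT. The log2 fold change was -0.099 (SE 0.083, 95% interval -0.29 to 0.092, edgeR adjusted p = 0.870), so that the interval ran from 18.2% lower to 6.57% higher in KO. Of all its 31-base words, 16.4% also occur in other genes, mostly in the pseudogene Gm4202, which had 0 counts in 5 libraries and 8.91 in KO2.

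Cab39 (ENSMUSG00000036707, chr1:85793441-85851576, plus strand) encodes MO25 alpha, the scaffold of the LKB1 kinase complex. It had 214, 209.7 and 194 CPM in WT and 188, 198 and 222 CPM in KO. The lowest and the highest library were both KO, and the groups overlapped throughout. In the fit the log2 fold change was -0.023 (SE 0.092, 95% interval -0.24 to 0.19, adjusted p = 0.964 by edgeR).

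Rab14 (ENSMUSG00000026878, chr2:35180205-35201120, minus strand) encodes a small GTPase of endosome and Golgi traffic. Its level was 145, 143 and 137 CPM in WT and 151, 158 and 141 CPM in KO. KO1 and KO2 were above all WT libraries, and KO3 was within their range. KO against WT, the log2 fold change was 0.080 (SE 0.080, 95% interval -0.10 to 0.26, adjusted p = 0.874 by edgeR).

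Mif (ENSMUSG00000033307, chr10:75859353-75860240, minus strand) encodes macrophage migration inhibitory factor, a cytokine that binds CD74. It had 85.7, 94.8 and 78.2 CPM in WT and 73.6, 64.8 and 89.7 CPM in KO. KO1 and KO2 were below all WT libraries, whereas KO3 was second only to WT2. The log2 fold change was -0.18 (SE 0.13, 95% interval -0.48 to 0.12, adjusted p = 0.841 by edgeR). It was -0.079 without KO2, -0.34 without KO3 (unadjusted p = 0.0175, edgeR adjusted p = 0.248) and 0.076 with the mean of red pulp macrophage markers as a covariate. Processed pseudogenes share 39.1% of its 31-base words, but none of those listed with it had more than 2 counts in a library.

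Tsc1 (ENSMUSG00000026812, chr2:28641228-28691167, plus strand) encodes hamartin, which with TSC2 restrains mTORC1. Its level was 64.0, 69.6 and 66.9 CPM in WT and 65.4, 64.7 and 67.0 CPM in KO. All 3 KO libraries were inside the WT range, and the highest library was 1.09 times the lowest, the narrowest range of the 8 genes. This gave a log2 fold change of -0.025 (SE 0.078, adjusted p = 0.958 by edgeR), with a 95% interval from 13.2% lower to 11.3% higher.

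Nfe2l2 (ENSMUSG00000015839, chr2:75675513-75704641, minus strand) encodes NRF2, the transcription factor of the response to oxidants. Its level was 71.3, 62.5 and 55.2 CPM in WT and 60.1, 66.5 and 51.5 CPM in KO. The groups overlapped, with WT1 highest and KO3 lowest. The log2 fold change was -0.087 (SE 0.13, 95% interval -0.38 to 0.21, adjusted p = 0.908 by edgeR). The gene with 2 matches to miR-144-3p in a short 3′-UTR was thus not measurably higher in KO, and in this fit the upper bound was 15.8% above WT. With 1 library left out, its log2 fold change ran from -0.19 (without WT3) to 0.0097 (without WT1).

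Abca1 (ENSMUSG00000015243, chr4:53030787-53159895, minus strand) encodes the transporter that passes cholesterol and phospholipid to apolipoprotein A-I. It had 64.4, 55.5 and 58.6 CPM in WT and 88.0, 87.1 and 65.4 CPM in KO. KO1 and KO2 were well above WT, and KO3 was 65.4 against 64.4 CPM in WT1. The mean was 59.5 ± 4.52 CPM in WT and 80.2 ± 12.8 CPM in KO (SD, n = 3 libraries each). The fold change was 1.35 (95% interval 1.10 to 1.66; log2 0.43, SE 0.13, unadjusted p = 0.0103, adjusted p = 0.683, edgeR), which did not pass the adjustment over all genes.

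Abca1 moved with several marker lists, among them that of red pulp macrophages, the iron-recycling phagocytes of the spleen. The 10 markers summed to 791, 582 and 554 CPM in WT1 to WT3 and to 1607, 2018 and 734 CPM in KO1 to KO3. All 10 had a log2 fold change above 0, with a median of 1.22, where 50.6% of all tested genes were above 0. At an unadjusted p under 0.05, 9 were higher, where 4.14% of all tested genes were, but none was called. The largest contributor was Hmox1, and no marker was at 0. KO1 and KO2 had the highest marker sums and the highest Abca1, and KO3 and WT1 stood beside each other in both. KO1 and KO2 also had the highest sums of B cell, monocyte, neutrophil, platelet and dendritic cell markers and the lowest of T cell markers, so these 6 libraries do not single out a cell type beside Abca1. The mean of 9 of these markers, all but Hmox1, was taken as a covariate after the values were seen. With that covariate the log2 fold change of Abca1 was 0.10 (SE 0.12, unadjusted p = 0.413, adjusted p = 0.962, edgeR). The covariate was 5.72, 5.39 and 5.28 log2 CPM in WT1 to WT3 and 6.83, 7.18 and 5.62 in KO1 to KO3. It largely ran with genotype, so this fit cannot part the markers from the genotype. With B cell, monocyte and dendritic cell markers as a covariate, Abca1 was at 0.27 (unadjusted p = 0.0112, adjusted p = 0.583, edgeR). In bulk libraries, more cells of a type cannot be told apart from more RNA per cell.

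Of the 11 marker lists, that of dendritic cells was the one whose sums did not overlap between the genotypes, at 659, 627 and 699 CPM in WT and 809, 793 and 757 CPM in KO. Of the 10 markers, 7 had a log2 fold change above 0, 4 of them at an unadjusted p under 0.05, and 3 were below 0, down to -0.19 for Itgae. Over all tested genes, 50.6% were above 0 and 4.14% were higher at that threshold. None of the 10 markers was called. The part of these markers in the level of Abca1 was not tested apart from the covariate above.

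**Figure D3:**
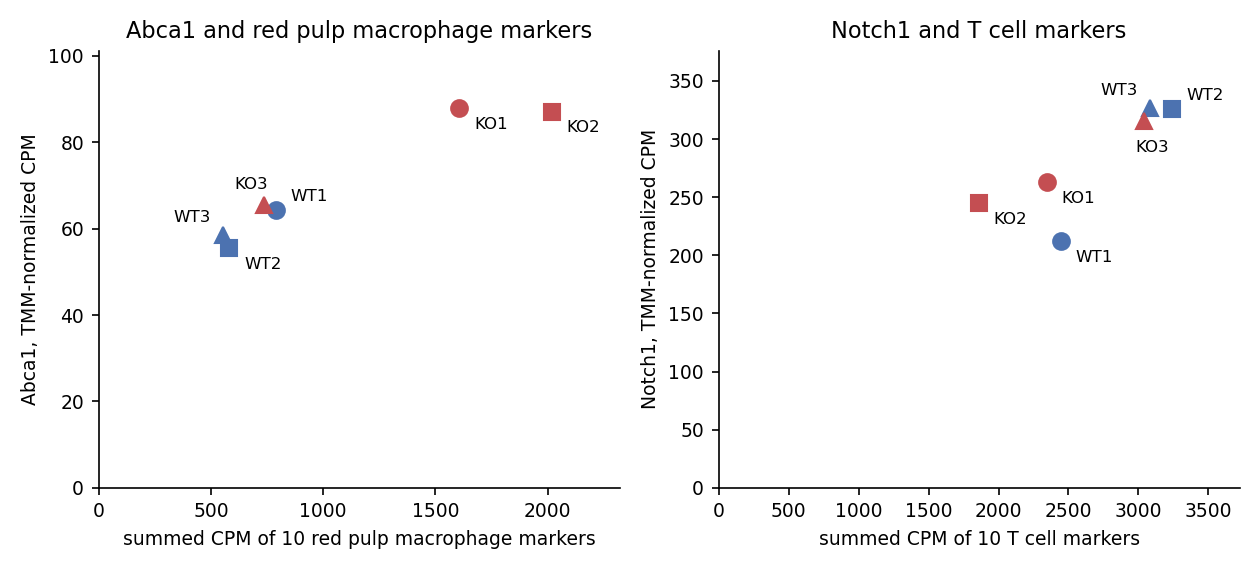
Left, Abca1 (TMM-normalized CPM) against the summed CPM of 10 red pulp macrophage markers; right, Notch1 against the summed CPM of 10 T cell markers; each point is a library, WT in blue and KO in red. KO1 and KO2 lie apart at the upper right of the left panel, and WT1, KO1 and KO2 lie at the lower left of the right panel.

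Notch1 (ENSMUSG00000026923, chr2:26457903-26516663, minus strand) encodes a receptor whose cleaved intracellular part acts with RBPJ, and which is needed for T cell development. Its level was 212, 326 and 327 CPM in WT and 263, 245 and 315 CPM in KO. WT1 was the lowest library of all, and the other WT libraries were the highest, so the KO libraries lay inside the WT range. The log2 fold change was -0.071 (SE 0.18, 95% interval -0.48 to 0.34, adjusted p = 0.947 by edgeR), the widest interval of the 8.

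The T cell marker sums followed a similar order, at 2447, 3238 and 3085 CPM in WT1 to WT3 and 2345, 1859 and 3039 CPM in KO1 to KO3. The libraries with the least Notch1, WT1, KO1 and KO2, were also those with the lowest T cell sums. They also had the highest sums of B cell, monocyte, neutrophil and plasma cell markers. These libraries thus do not single out a cell type beside Notch1. With the B cell, monocyte and dendritic cell covariate the log2 fold change of Notch1 was 0.16, and with the macrophage covariate 0.27, both of the opposite sign and neither called. Exons of the antisense gene 0610009E02Rik overlap 7.50% of the Notch1 exons. The counting is not stated to use strand, and the counts of that gene ran from 157 to 266 per library.

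**Figure D4:**
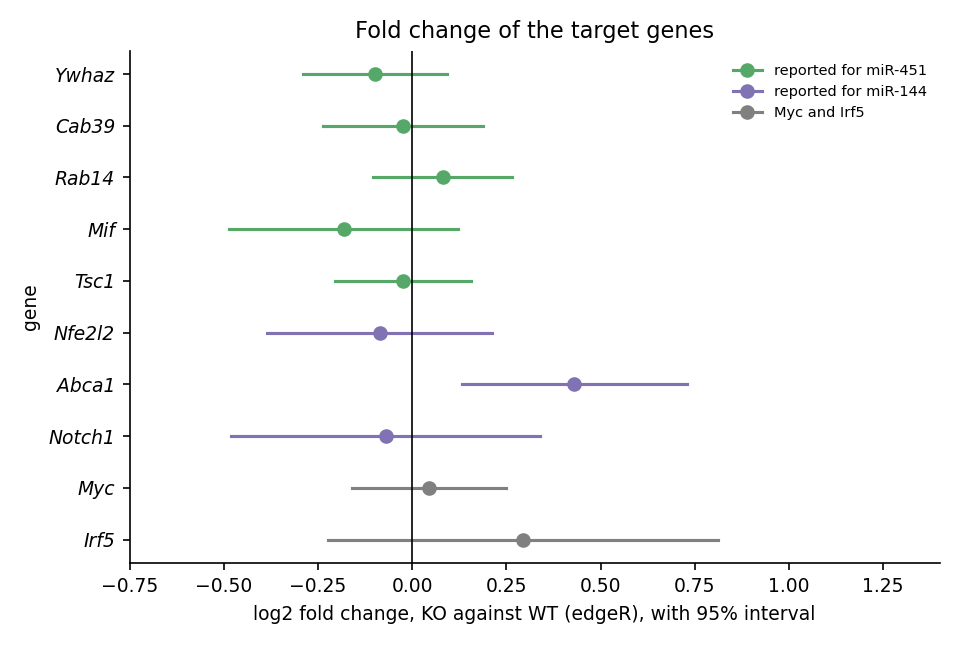
Log2 fold change of KO against WT for the 8 target genes and for Myc and Irf5, with 95% intervals from the edgeR fit; green marks reported miR-451 targets, purple reported miR-144 targets and grey the other genes. The interval of Abca1, 0.13 to 0.73, is the one that lies apart from 0 before adjustment over all genes.

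Per kb of exon, mean WT levels were 141 CPM per kb for Ywhaz, 116 for Mif, 29.1 for Cab39, 20.3 for Notch1, 16.6 for Nfe2l2, 10.4 for Rab14, 5.74 for Abca1 and 5.65 for Tsc1. In KO they were 132, 102, 28.6, 19.3, 15.6, 11.0, 7.73 and 5.55 CPM per kb in the same order. The WT ranges of Notch1 and Nfe2l2 and those of Abca1 and Tsc1 overlapped, so their order in WT is not resolved. All 8 members were thus read well above the counting floor in every library.

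The study's paper also names Myc as a miR-451 target and Irf5 as its own miR-144 target, and neither was called. Myc, a growth-promoting transcription factor with 1 match of 7 nt to miR-451a, had 189.8, 204 and 188 CPM in WT and 193, 218 and 189 CPM in KO. Its log2 fold change was 0.044 (SE 0.089, adjusted p = 0.936, edgeR). Irf5, a transcription factor of inflammatory cytokine genes, had no seed match of 6 nt or more in its longest 3′-UTR, which says nothing of other kinds of pairing there. It had 112, 71.4 and 90.2 CPM in WT and 121, 137 and 78.1 CPM in KO. The groups overlapped, and the log2 fold change was 0.29 (SE 0.23, 95% interval -0.22 to 0.81, adjusted p = 0.851, edgeR).

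The paper's discussion lists further genes as direct miR-144 targets, mostly from cancer cells, and those not covered above were read from the same fit after the other values had been seen. Flt3, the receptor of the cytokine that sustains dendritic cells, had 31.9, 31.8 and 32.5 CPM in WT and 44.6, 39.3 and 51.1 CPM in KO. All KO libraries were above all WT libraries, with a log2 fold change of 0.49 (SE 0.12, unadjusted p = 0.00283, adjusted p = 0.519, edgeR), which did not pass the adjustment. Flt3 is also 1 of the 10 dendritic cell markers, the list whose sums did not overlap between the genotypes, and the part of those cells in its level was not tested. Bcl6, a transcriptional repressor, was at 0.24 (SE 0.25, adjusted p = 0.875), Smad1, a signal carrier of BMP receptors, at 0.027 (SE 0.10, adjusted p = 0.963), and Tug1, a long noncoding RNA, at -0.032 (SE 0.082, adjusted p = 0.947), all by edgeR and with overlapping libraries. Fmn2, an actin nucleator, was under the floor of 3 counts in every library and was not tested.

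Partners and downstream genes of the members were read from lists in the same fit, and no gene of any of the 9 lists was called. Of 7 genes of 14-3-3 proteins, 3 had a log2 fold change above 0 and none was at an unadjusted p under 0.05. The log2 fold changes of the paralogs were -0.11 for Sfn, 0.10 for Ywhag, -0.057 for Ywhaq, 0.054 for Ywhae, -0.037 for Ywhab and 0.032 for Ywhah, so none stood out. Of 17 tested FoxO factors and FoxO-linked genes, 4 were above 0 and the median was -0.072. Txnip, which inhibits thioredoxin, was the one at an unadjusted p under 0.05, at -0.28 (SE 0.089, adjusted p = 0.716, edgeR). Trib2, a pseudokinase, was at -0.17 and Cat, which encodes catalase, at 0.15, both with an adjusted p of 0.816 (edgeR). Foxo1, which 14-3-3 proteins hold in the cytoplasm, was at -0.072.

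Of 16 tested genes of LKB1 and AMPK, the energy-sensing kinases, 10 were above 0 with a median of 0.038, and none was at an unadjusted p under 0.05. Cab39l, the paralog of Cab39, was at -0.20 (SE 0.11, adjusted p = 0.816, edgeR), with all KO libraries below all WT libraries. Acacb, an acetyl-CoA carboxylase, was at 0.70 (SE 0.44) and Prkag2, an AMPK gamma subunit, at 0.22 (SE 0.15). The difference of Acacb came from KO3, at 5.95 CPM, with KO1 and KO2 inside the WT range of 1.86 to 2.51 CPM. The 17 genes of TSC and mTORC1 had a median of 0.040, with 12 above 0 and none at an unadjusted p under 0.05. Tsc2, the partner of Tsc1, was at 0.044 (SE 0.12), and Mtor, the kinase itself, at 0.098 (SE 0.091). Mlst8, an mTOR complex subunit, was at -0.21 (SE 0.093, adjusted p = 0.797) and Tbc1d7, a TSC complex subunit, at 0.74 (SE 0.35, adjusted p = 0.809), by edgeR. The 17 endosomal Rab genes and Rab14 partners had 11 above 0 and a median of 0.042. Tbc1d4, a GTPase-activating protein for Rab proteins, was at 0.33 and Rab7, of late endosomes, at 0.20, both at an unadjusted p under 0.05 and an adjusted p of 0.786 (edgeR). At that unadjusted threshold, 4.14% of all tested genes were higher in KO. Rab11a, of recycling endosomes, was at 0.19 (SE 0.093, adjusted p = 0.816, edgeR). The libraries did not overlap for 2 genes higher in KO, Rab7 and Rab11a, and for 2 lower, Rab8a at -0.15 and Rab2a at -0.13. Over all tested genes, 5.83% and 5.64% did the same in those directions. Of the 8 genes of Mif and its receptors, Cd74, the receptor, was at 0.22 (SE 0.21), Cd44, its co-receptor, at 0.33 (SE 0.18), Ddt, the homologue of Mif, at -0.28 (SE 0.17). Of these 8, 5 were above 0 with a median of 0.13, and none was at an unadjusted p under 0.05.

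The 22 tested NRF2 regulators and targets had 16 above 0 and a median of 0.11, beside 50.6% above 0 and a median of 0.0030 over all tested genes. At an unadjusted p under 0.05, 3 were higher and none lower, against 4.14% and 2.11% of all tested genes. Hmox1, the heme-degrading enzyme, had 157, 112 and 97.7 CPM in WT and 317, 407 and 153 CPM in KO (log2 fold change 1.26, SE 0.33, adjusted p = 0.610, edgeR). Its libraries overlapped, since KO3 was below WT1. Ftl1, a ferritin chain, was at 0.40 and Slc48a1, a heme transporter, at 0.49. These 3 genes serve heme and iron handling, and Hmox1 is also 1 of the 10 red pulp macrophage markers. Keap1, the inhibitor of NRF2, was at -0.017 (SE 0.12).

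The cholesterol efflux and LXR list had 11 of 17 genes above 0 and a median of 0.049. In it 4 genes were higher at an unadjusted p under 0.05 and none lower, where 4.14% of all tested genes were higher and 2.11% lower. Abca1 is itself one of the 4, and the others were Nr1h3, Rxra and Soat1. Nr1h3, which encodes LXR alpha, the sterol-sensing receptor that activates Abca1, had 9.93, 8.10 and 8.31 CPM in WT and 25.2, 27.7 and 12.3 CPM in KO. All KO libraries were above all WT libraries, with a log2 fold change of 1.30 (SE 0.30, unadjusted p = 0.00233, adjusted p = 0.494, edgeR). Rxra, its partner receptor, was at 0.54 (SE 0.14, adjusted p = 0.555), also with no overlap. With Abca1 these were 3 genes with all KO libraries above all WT libraries, and 1, Npc2, a lysosomal cholesterol carrier, at -0.21, had all below, against 5.83% and 5.64% of all tested genes. Abcg1, the transporter that passes cholesterol to HDL, was at 0.078 (SE 0.077, adjusted p = 0.873). KO1 and KO2, the libraries with the highest macrophage marker sums, had the highest levels of Nr1h3 and Rxra, and the part of the markers in these values was not tested.

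Of the 32 tested genes of Notch receptors, ligands and targets, 22 were above 0 with a median of 0.047. Notch4, an endothelial receptor of the family, had 5.25, 6.50 and 8.81 CPM in WT and 15.3, 8.30 and 16.0 CPM in KO (log2 fold change 0.95, SE 0.30, adjusted p = 0.712, edgeR). Its groups overlapped through KO2. Psenen, a gamma-secretase subunit, was at -0.27 (SE 0.092, adjusted p = 0.729), with all KO libraries below all WT libraries. Hes1, a classical Notch target, was at 0.71 (SE 0.36, adjusted p = 0.816), and the other paralogs of Notch1 were at 0.14 (SE 0.18) for Notch2 and 0.77 (SE 0.45) for Notch3.

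The transcript whose log2 CPM ran most like each member over the 6 libraries, out of 8167 genes with a mean log2 CPM of at least 4, was chosen for that likeness, so the coefficients are a description. It was Rpl37rt for Ywhaz (r = 0.994), Pdia3 for Cab39 (0.993), Zfp106 for Rab14 (0.996), Mrpl13 for Mif (0.996), Rhot2 for Tsc1 (0.987), Fli1 for Nfe2l2 (0.997), Mast2 for Abca1 (0.993) and Stx1a for Notch1 (0.998). With 6 libraries, between 42 and 303 genes exceeded 0.9 with each member.

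Genes with seed matches across the transcriptome were set beside the members. Of the 11550 tested genes with an annotated 3′-UTR, 221 held a 7-nt match to miR-451a, 1542 one to miR-144-3p and 645 one to miR-144-5p. Their median log2 fold changes were 0.036, 0.028 and 0.046, against 0.0024 for all, and 57.5%, 57.6% and 60.9% of them were above 0, against 50.5%. None of these genes was called by edgeR. At an unadjusted p under 0.05, 14, 75 and 36 were higher in KO, that is 6.33%, 4.86% and 5.58% of each class, against 4.20% of all genes with a 3′-UTR. Lower in KO at that threshold were 3 of 221, 13 of 1542 and 7 of 645, against 236 of all 11550. For the 262 genes with 2 or more 7-nt matches to miR-144-3p, a class that holds Abca1 and Nfe2l2, the median was 0.065 and 66.0% were above 0, and for the 43 genes with an 8-nt match to miR-451a the median was 0.071 and 67.4% were above 0. The median 3′-UTR of these was 3635 and 2098 nt long. Against their 7-nt classes, the 8-nt class of miR-451a and that of miR-144-3p, at 0.034 (59.3% above 0), had the higher median. The 8-nt class of miR-144-5p, at 0.041 (59.7%), had a lower median than its 7-nt class.

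The genes with matches also had longer 3′-UTRs, with medians of 2077, 2590 and 2722 nt against 1183 nt for all. Among the 2564 tested genes with a 3′-UTR of 2000 to under 4000 nt, a range chosen after the values were seen, the median was 0.027. In that range it was 0.028 for the 78 genes with a miR-451a match, 0.030 for 595 with miR-144-3p, 0.024 for 232 with miR-144-5p and 0.026 for 1752 with none of the matches. Above 0 were 55.1%, 59.5%, 57.3% and 56.0% of them, in that order. These are descriptions with no test, and classes with 2 or more matches were not compared at like length.

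**Figure D5:**
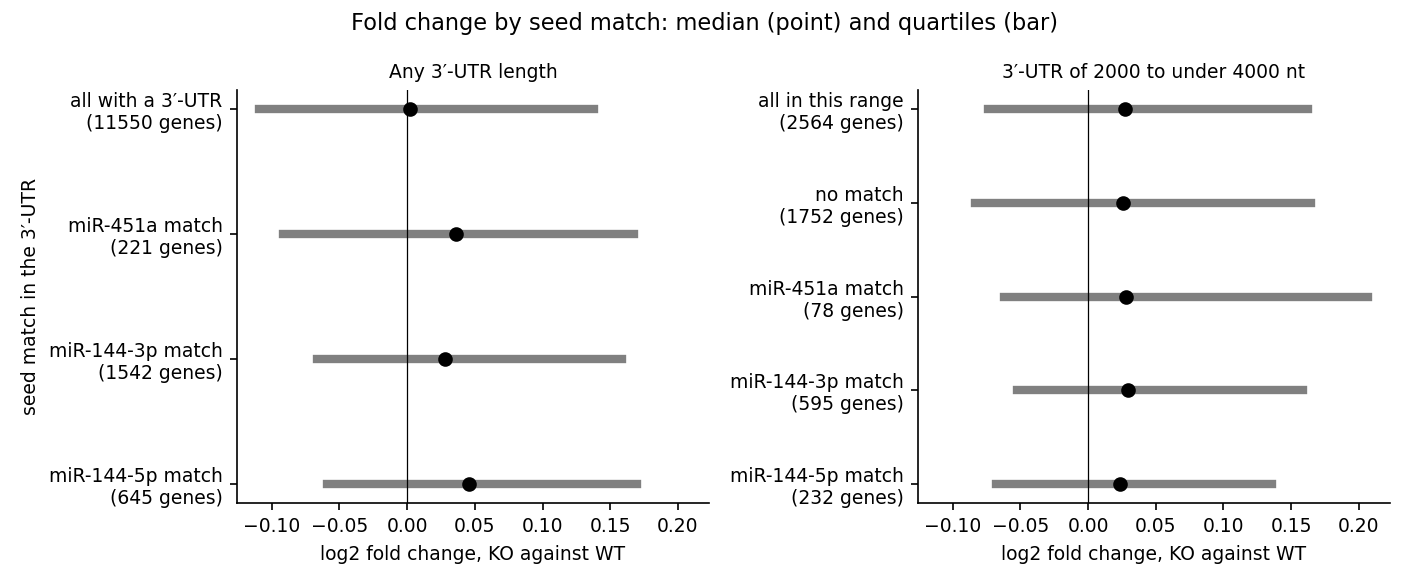
Log2 fold change of KO against WT for tested genes grouped by a 7-nt seed match in the 3′-UTR, over any 3′-UTR length (left) and for 3′-UTRs of 2000 to under 4000 nt (right); points are medians and bars run from the lower to the upper quartile. On the left the medians with a match lie between 0.028 and 0.046 and that of all genes at 0.0024, and on the right all 5 medians lie between 0.024 and 0.030.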

How the data were processed

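RNA was sequenced from spleen CD8a+ leukocytes in 3 WT and 3 KO libraries (SMARTER mRNA-Seq kit). Files deposited by the authors hold unscaled expected counts for each Ensembl gene. This unit was read from the values, which include fractions. The build is GRCm38 (mm10) per the submitters' processing notes. The aligner, the counter and the use of strand are not given in the sources used here. Of 44678 identifiers, 44121 are in GENCODE M21, used for positions and 3′-UTRs, the longest per gene.

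Expected counts were rounded and fitted with edgeR 4.0.16 in R 4.3.3: TMM factors (0.989 to 1.01), filterByExpr (minimum count 10, total 15), quasi-likelihood test, and Benjamini-Hochberg adjustment over 13024 genes at 0.05. Intervals are 95%, from the fit's t distribution. Depth was like in all libraries; within a genotype, libraries differed by more than sampling noise (chi-square per degree of freedom 6.41 to 23.7). On counts simulated for this comparison, 2 of 200 genes changed by 0.5 on the log2 scale were recovered, 118 of 200 changed by 1 and 184 of 200 changed by 2 (12834, 12830 and 12832 genes).

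The members and lists were chosen with earlier results of these data known. Named were every member, Mir144 and Mir451a, Myc and Irf5, paralogs, the 3 genes of smallest unadjusted p per list, the most similar transcript of each member and leading markers. Foxo1, Keap1, Abcg1, Tsc2, Cd74 and the targets of the paper's discussion were added for their roles, after their values were seen. Itgae, Rab8a, Rab2a, Npc2 and Soat1 were added for their values. Alternatives were DESeq2 1.42.0, limma voom (limma 3.58.1), other scaling and filters, a replicate block, counts without hemoglobin and immunoglobulin genes, marker covariates and leaving out libraries.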

Additional observations from a re-analysis of the deposited data

How the results depend on the processing

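With 3 libraries a group, changes of 0.5 on the log2 scale were seldom recovered in simulated data, so absence of a call does not show an unchanged gene. The labels do not tie libraries to mice. Marker sums overlapped between the genotypes for 10 of 11 lists, all but that of dendritic cells.

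The macrophage covariate, leaving out WT1 and KO3 together, the 3′-UTR length range and applying the gene fits to the seed classes were added after seeing the data. The fit without WT1 and KO3 was first run, then dropped once its result was seen, and was restored so that every setting tried is given. The measure followed for the seed classes was changed after its values were seen, from the class median to the class median minus that of all genes with a 3′-UTR. As plain medians, the classes without KO3 were at -0.0043 for miR-451a, -0.016 for miR-144-3p and 0.011 for miR-144-5p, with all genes at -0.028.

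The count of genes called, 4, became 58 with DESeq2, 12 with no filter on low counts, 9 with the replicate block, 13 with the cell marker covariate, 7 with the macrophage covariate, 1011 without WT1 and KO3, and 2 to 94 with 1 library left out (2 without WT1 or without WT3, 94 without KO3). Of the target genes, 0 were called under 16 of 17 alternatives, and 2 without WT1 and KO3, Abca1 at 0.62 and Notch1 at -0.36. Adjusted p of Abca1 ran from 0.00541 to 1 over the 17 alternatives, and that of Notch1 from 0.0496 to 1. Without KO3 alone Abca1 was at 0.54 (edgeR adjusted p = 0.0612). Abca1 kept its sign under all 17 alternatives, between 0.10 and 0.62, as did Ywhaz, between -0.13 and -0.073.

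Signs turned, with no call, under the cell marker covariate for Cab39 (0.011), Tsc1 (0.0062) and Notch1 (0.16), under the macrophage covariate for Cab39 (0.083), Rab14 (-0.037), Mif (0.076), Tsc1 (0.021) and Notch1 (0.27), and without WT1 and KO3 for Nfe2l2 (0.10). With 1 library left out, log2 fold changes ran from -0.12 to 0.012 for Cab39, -0.059 to 0.0041 for Tsc1, -0.19 to 0.0097 for Nfe2l2, 0.040 (without KO2 or WT3) to 0.10 for Rab14, -0.34 to -0.079 for Mif and -0.25 to 0.025 for Notch1. The causes were not tested. Nfe2l2 was at -0.22 under the cell marker covariate (unadjusted p = 0.0450) and at -0.37 under the macrophage covariate (unadjusted p = 0.0227, edgeR adjusted p = 0.571), called under neither.

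Above all genes, the miR-451a class median stood at 0.068 with 8-nt sites only and at 0.023 to 0.037 with 1 library left out, against 0.033. The miR-144-3p class stood at 0.045 with the macrophage covariate and at 0.013 (without KO3) to 0.039 with 1 library left out, against 0.025.

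Same-numbered WT and KO libraries deviated from their group means with correlations across genes of -0.013, -0.18 and 0.092, so the numbers were not taken to pair the libraries. With the replicate block Abca1 was at 0.42 (edgeR adjusted p = 0.749), and no target gene was called.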
